A study of Rattus norvegicus with 7 samples.

Results

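Of 8 complement genes listed for this account (C1qa, C1qb, C1qc, C1r, C1s, C2, C3 and Cfb), 6 were measured by a probe set of their own on the arrays, 1 probe set each, among 14217 genes with such a probe set in the whole series. They were C1qa, C1qb, C1qc, C1r, C1s and C3. C2 and Cfb had none, because the 4 probe sets that carry their names are each annotated to both genes. The genes were chosen by their symbols after the signals of these same arrays over time, among them the 72 hour ratios of C1qa and C1qc, had been seen, so the signals of the members are given as a description and without a test. The cells came from the spinal cord of Sprague-Dawley rat embryos of day 15, freed of dorsal root ganglia and meninges, and grew as a mixed primary culture on a flexible membrane. They were stretched by 10% at 0.5 Hz, and the RNA of 5 animals was combined for 1 array before loading (0 hours) and for 1 array at each of 6 later times (hours 2, 6, 12, 24, 48, 72), 7 arrays in all. Embryos were pooled and no time had a second array, so no spread between cultures can be given, and precision is limited by how few arrays there are. Unloaded cultures of the later times were not analysed here, and time under stress and time in culture cannot be told apart.

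Complement is a cascade of proteins that mark and lyse targets. C1 starts its classical route, with C1q as the recognition part, built from the chains encoded by C1qa, C1qb and C1qc, and with the serine proteases C1r and C1s, which are carried by C1q and cut the next components. C2 (classical route) and Cfb (alternative route) provide the protease of the enzymes that cleave C3, the central component on which all routes converge. In nervous tissue C1q is made mainly by microglia and macrophages, and complement tags synapses and debris for removal by these cells. In a mixed culture, fewer cells of a type and less RNA per cell cannot be told apart.

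The signals of the 3 C1q genes were slightly higher at 6 hours, much lower at 12 hours, partly restored at 24 hours and lowest at 72 hours. C1qa, the A chain, had a signal of 5264 at 0 hours, 5330 at 2, 6318 at 6, 2147 at 12, 2945 at 24, 998 at 48 and 984 at 72 hours. C1qb, the B chain, had a signal of 2789 at 0 hours, 3046 at 2, 3492 at 6, 1336 at 12, 1701 at 24, 833 at 48 and 710 at 72 hours. C1qc, the C chain, had a signal of 2801 at 0 hours, 2762 at 2, 3531 at 6, 1077 at 12, 1393 at 24, 548 at 48 and 489 at 72 hours. For each of these genes the 6 hour array was the highest of the 7 and the 72 hour array the lowest, and all 4 arrays from 12 hours on lay below all 3 earlier ones. The highest signal was 6.42 times the lowest for C1qa, 4.92 times for C1qb and 7.22 times for C1qc.

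**Figure D1:**
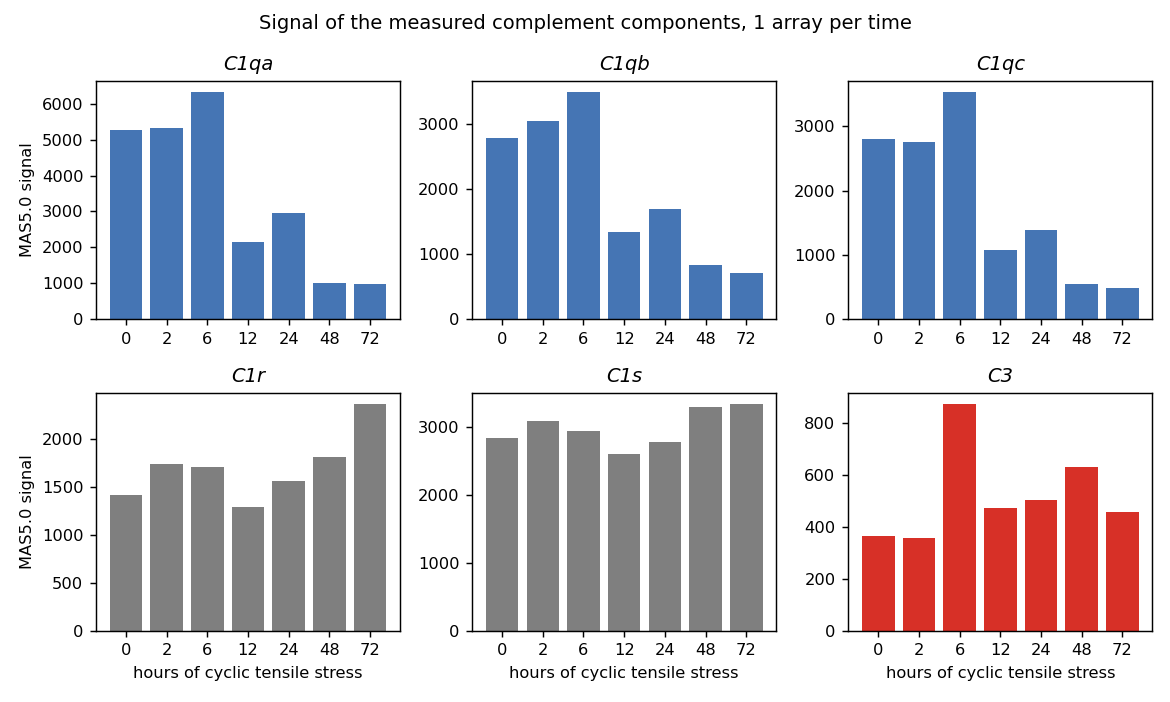
MAS5.0 signal (vertical axes, starting at 0) of the 6 measured complement components on the 7 arrays, against the hours under tensile stress (horizontal axes, evenly spaced), with 1 bar per array. C1qa, C1qb and C1qc are high up to 6 hours and lowest at 72 hours, C1r and C1s are highest at 72 hours, and C3 is highest at 6 hours, with 875.

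Relative to 0 hours, the 3 C1q genes were at 0.986 to 1.09 after 2 hours, 1.20 to 1.26 after 6, 0.385 to 0.479 after 12, 0.497 to 0.610 after 24, 0.190 to 0.299 after 48 and 0.175 to 0.255 after 72. The study's methods call a change by its size, as a signal ratio of 2 or more, up or down, that comes with a difference of 200 or more. By this rule all 3 were lower at 12 hours, as were 1.71% of all 31042 probe sets, C1qc was lower at 24 hours (1.31% of all probe sets), and all 3 were lower at 48 hours (3.05%) and at 72 hours (3.54%). C1qc was only just past the threshold at 24 hours, with a ratio of 0.497, while C1qa, at 0.559, was not past it. As a yardstick, the ratio to 0 hours of the middle 95% of the 17709 probe sets that averaged 100 or more over the arrays lay between 0.402 and 1.83 at 12 hours and between 0.296 and 2.83 at 72 hours. All 3 C1q genes were below this range at 72 hours. At 12 hours C1qc was below it, and C1qa (0.408) and C1qb (0.479) were within it.

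The step between 6 and 12 hours was the steepest in the early course of these genes. The 12 hour signal was 0.340 of that at 6 hours for C1qa, 0.383 for C1qb and 0.305 for C1qc, whereas the middle 95% of probe sets lay between 0.597 and 1.76. Only 60 of the 17709 probe sets (0.339%) had a ratio as low as that of C1qb or lower over this step, and by the size rule, set between these arrays, 0.248% of all probe sets were lower, the 3 C1q genes among them. From 12 to 24 hours each C1q signal was higher again, by factors of 1.37, 1.27 and 1.29 for the A, B and C chain, within the middle 95% of all probe sets (0.667 to 1.59). From 24 to 48 hours the signals were lower a second time, at 0.339, 0.490 and 0.393 of the 24 hour value. All 3 were again below the middle 95% of probe sets, which for this step lay between 0.527 and 1.76. The last day differed less, with 0.985, 0.852 and 0.893 of the 48 hour value at 72 hours.

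C1qa and C1qc had nearly the same course. Likeness was measured as the root mean square difference of their log2 changes from 0 hours, log2(signal + 32), over the 6 later arrays. It was 0.09 between C1qa and C1qc, each of which was the nearest of 10314 genes to the other. C1qb, the least lowered of the 3, was at 0.35 from C1qa and 0.37 from C1qc and ranked as the fourth nearest gene to either. Seen from C1qb, C1qa ranked 19 and C1qc 25 among the 10314 genes. These genes lie side by side on chromosome 5 of the rat assembly GRCr8, in the order C1qb, C1qc and C1qa, with no other annotated gene between them.

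The promoter windows of C1qa and C1qb are shown because both genes had lower signals at 12 and again at 48 hours. They run from 250 bases before to 50 bases after the annotated start, were taken from RefSeq (GRCr8) and are written 5′ to 3′, with matches to the motifs searched in capitals. RefSeq windows were at hand for 4 of the 8 genes.

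C1qa (chr5:154419884-154420183, minus strand): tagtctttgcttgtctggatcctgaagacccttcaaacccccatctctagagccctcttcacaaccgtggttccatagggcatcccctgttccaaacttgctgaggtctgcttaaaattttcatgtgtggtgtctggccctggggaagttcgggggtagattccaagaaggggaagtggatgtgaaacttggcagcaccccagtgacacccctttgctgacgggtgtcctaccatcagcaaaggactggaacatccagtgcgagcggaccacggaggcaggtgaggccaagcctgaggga

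C1qb (chr5:154407778-154408077, minus strand): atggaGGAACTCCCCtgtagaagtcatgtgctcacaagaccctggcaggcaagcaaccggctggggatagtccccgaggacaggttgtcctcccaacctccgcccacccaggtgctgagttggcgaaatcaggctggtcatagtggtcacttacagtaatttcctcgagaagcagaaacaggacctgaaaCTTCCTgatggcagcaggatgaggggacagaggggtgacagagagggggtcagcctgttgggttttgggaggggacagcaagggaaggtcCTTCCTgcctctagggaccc

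The motifs searched on both strands were AGGAAG, TTGCNNAA (C/EBP), GAAANNGAA (interferon response element) and the kappaB motif of NF-kB. AGGAAG is a spelling of the sites bound by PU.1, a factor of myeloid cells, and by related ETS factors. Other spellings of these sites were not searched, so a window without AGGAAG can still hold such a site. With the start base counted as position 0, the C1qb window held AGGAAG on the opposite strand, as CTTCCT, at positions -60 and 30, and a kappaB match, GGAACTCCCC, at -245. The C1qa window held none of the 4 motifs in these spellings. AGGAAG stands in 34.5% of all 33469 windows of this length, and the kappaB motif in 7.51%. Such matches are a description of the letters and not of binding.

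Most markers of microglia and macrophages were not lower at 12 hours, when the C1q genes were. Of 15 listed markers 14 had a probe set, and 13 of these had a mean signal of at least 100. At 12 hours the ratios of these 13 ranged from 0.485 (P2ry12) to 1.91 (Ctss), with a median of 1.19, and all 13 were above the highest C1q ratio of 0.479. Tyrobp, a signalling adaptor of myeloid receptors, was at 1.20 times its 0 hour signal, Cd68, a lysosomal glycoprotein, at 1.19 times, and Fcer1g, a chain of Fc receptors, at 1.13 times. Csf1r, the growth factor receptor these cells depend on, was at 1.25 times, and Lyz2 (lysozyme) at 1.17 times. Csf1r and P2ry12 were named after their values had been seen. P2ry12 was the only exception among the markers at 24 and 48 hours. At 24 hours it was at 0.419, below all 3 C1q genes (0.497 to 0.610), and at 48 hours at 0.202, within their range (0.190 to 0.299), while the other 12 markers were above the C1q genes at both times. At 72 hours the C1q genes were still lower than most markers. The marker ratios then ranged from 0.183 to 1.31, with a median of 0.762, and 11 of the 13 were above the highest C1q ratio of 0.255. The other 2 were Aif1 (Iba1), a calcium-binding protein of microglia and macrophages, at 0.183, and P2ry12, a purine receptor of microglia, at 0.243. The summed signal of the 14 markers was 98773 at 0 hours, 137941 at 6, 125216 at 12 and 88335 at 72 hours. The difference between the C1q genes and the markers was not tested, because the C1q genes were chosen after their signals had been seen.

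**Figure D2:**
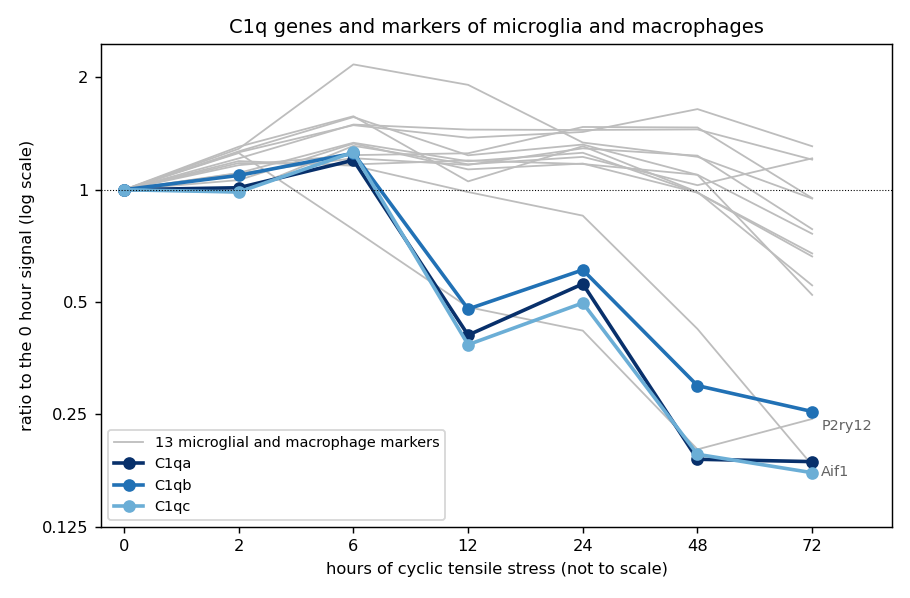
Ratio to the 0 hour signal (vertical axis, log scale) of C1qa, C1qb and C1qc (blue, points) and of 13 markers of microglia and macrophages (grey lines) against the hours under tensile stress (horizontal axis, evenly spaced). At 12 hours the C1q genes lie at 0.385 to 0.479, below all 13 markers, and at 72 hours at 0.175 to 0.255, where Aif1 (0.183) and P2ry12 (0.243) are as low.

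A linear change with hours was tested in all 17709 probe sets with limma on log2(signal + 32), with adjustment over all of them, and of these 15.0% rose and 14.1% fell at an adjusted p under 0.05. Only genes that pass this test are said here to have risen or fallen. The 6 members were among the probe sets fitted, but their results of this test are not given. Of the 13 microglial and macrophage markers none rose, 6 fell and the other 7 did not pass. Their log2 changes had a median of 0.25 at 12 hours and -0.39 at 72 hours, against 0.01 and -0.004 over all probe sets tested. Aif1 fell by 2.54 on the log2 scale over 72 hours (standard error 0.20, adjusted p = 1.4e-04), and Cd68 fell by 0.70 (standard error 0.20, adjusted p = 0.0249). Without the 72 hour array 2 of the 13 fell.

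Among all named genes the closest courses to those of the C1q genes were found by the same root mean square difference, with the other members left out. To C1qb the nearest were P2ry6, a receptor for UDP (0.12), Rasgrp3, an activator of Ras proteins (0.15), and Stab1, a scavenger receptor (0.19). P2ry6 was at 1.14 times its 0 hour signal at 6 hours, 0.510 at 12, 0.699 at 24 and 0.221 at 72 hours. To C1qa the nearest were Trpc6, a cation channel (0.26), Ms4a7, a membrane-spanning protein (0.27), and Cd200, a surface glycoprotein (0.38). These 3 were also the nearest to C1qc, with 0.28, 0.26 and 0.40. Ms4a7 was at 0.442 at 12 hours, 0.454 at 24 and 0.110 at 72 hours.

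The signals of the C1 proteases did not go down with C1q at 48 and 72 hours. At 12 hours both were lower than at 6 hours, but less so than C1q, at 0.759 (C1r) and 0.883 (C1s) of the 6 hour signal. C1r, the protease that activates itself and then C1s, had a signal of 1419 at 0 hours, 1747 at 2, 1710 at 6, 1297 at 12, 1561 at 24, 1817 at 48 and 2370 at 72 hours. Its 72 hour array was the highest and its 12 hour array the lowest, with 1.67 times and 0.914 of the 0 hour signal. C1s, which cuts C4 and C2, had a signal of 2838 at 0 hours, 3094 at 2, 2945 at 6, 2600 at 12, 2791 at 24, 3306 at 48 and 3344 at 72 hours. It was the least variable of the 6 genes, its highest signal being 1.29 times its lowest. As for C1r, the highest C1s signal was that of 72 hours (1.18 times 0 hours) and the lowest that of 12 hours (0.916). Neither gene passed the size rule at any time, and all their ratios were within the middle 95% of all probe sets.

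C1r and C1s are neighbours on chromosome 4 of GRCr8 with no other annotated gene between them. The root mean square difference between their courses was 0.24 and that between C1r and C1qa 1.80. Among 10314 genes C1s ranked 518 by nearness to C1r, and C1r ranked 2734 by nearness to C1s. The nearest to C1r were Cemip2, a hyaluronidase of the cell surface (0.07), Cep43, a centrosomal protein (0.12), and Maml2, a coactivator of Notch (0.13). Nearest to C1s were Srp68, of the signal recognition particle (0.05), Ints7, of the Integrator complex (0.06), and Yy1, a transcription factor (0.06), all close to their 0 hour signal throughout. The C1r window of RefSeq held 1 match to TTGCNNAA, on the opposite strand as TTATGCAA at position -83, a motif found in 10.6% of all windows.

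C3 was higher at 6 hours. Its signal was 366 at 0 hours, 358 at 2, 875 at 6, 476 at 12, 505 at 24, 632 at 48 and 457 at 72 hours. The 6 hour array stood apart from the other 6, at 2.39 times the 0 hour signal, and the 48 hour array, at 1.73 times, was the next highest. At 12, 24 and 72 hours C3 was between 1.25 and 1.38 times its 0 hour signal. At 6 hours C3 alone of the 6 members was higher by the size rule, as were 0.351% of all probe sets, with the middle 95% of ratios between 0.457 and 1.76.

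**Figure D3:**
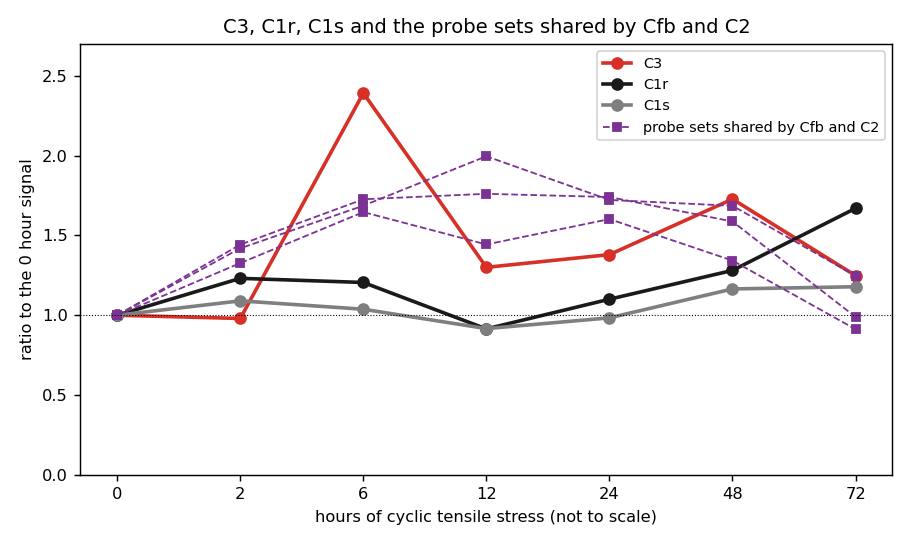
Ratio to the 0 hour signal (vertical axis) of C3, C1r and C1s and of the 3 brighter probe sets shared by Cfb and C2 (dashed), against the hours under tensile stress (horizontal axis, evenly spaced). C3 stands at 2.39 at 6 hours, C1r ends at 1.67, and the shared probe sets lie between 1.33 and 2.00 from 2 to 48 hours.

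The promoter window of C3 is shown because C3 was the one member with a higher 6 hour signal past the size rule, and it is written as for the C1q genes.

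C3 (chr9:2201290-2201589, minus strand): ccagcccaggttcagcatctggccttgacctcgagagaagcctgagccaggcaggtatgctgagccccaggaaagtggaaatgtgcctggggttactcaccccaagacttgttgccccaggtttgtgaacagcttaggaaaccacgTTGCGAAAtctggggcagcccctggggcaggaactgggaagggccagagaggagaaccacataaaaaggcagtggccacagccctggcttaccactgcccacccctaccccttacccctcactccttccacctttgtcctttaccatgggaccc

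It held 1 match to TTGCNNAA, in the form TTGCGAAA at position -104, and none to the kappaB motif, to AGGAAG or to GAAANNGAA. The nearest courses to that of C3 were those of Sh2b2, an adaptor of receptor kinases (0.13), Ebi3, a cytokine subunit (0.17), and Cxcl16, a chemokine (0.19). At 6 hours these were at 2.27, 2.10 and 1.94 times their 0 hour signal. Of 18 genes of the acute phase and of NF-kB targets, 16 were tested, of which 6 rose, none fell and 10 did not pass, and their log2 changes had a median of 0.54 after 6 hours, 0.71 after 48 and 0.66 after 72, against -0.04, -0.02 and -0.004 over all probe sets tested. Without the 48 hour array 1 of the 16 fell. Lcn2, a siderophore-binding protein of the acute phase, rose to 3.01 times its 0 hour signal at 72 hours (adjusted p = 0.00741), where C3 was at 1.25 times. At 6 hours, when C3 was at 2.39 times, Lcn2 was at 1.58 times. The 16 tested genes of this list then ranged from 0.625 to 6.98 times.

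C2 and Cfb, neighbours on chromosome 20 of GRCr8 with no other annotated gene between them, could not be read apart, and the values of their shared probe sets belong to neither gene alone. Of the 4 shared probe sets 1 had signals of 6.85 to 54.6, too low for a ratio. The brightest had a signal of 1444 at 0 hours, 1916 at 2, 2378 at 6, 2085 at 12, 2315 at 24, 1939 at 48 and 1318 at 72 hours. In the second the signal was 1127 at 0 hours, 1599 at 2, 1900 at 6, 2249 at 12, 1941 at 24, 1899 at 48 and 1405 at 72 hours. In the third it was 1042 at 0 hours, 1503 at 2, 1799 at 6, 1834 at 12, 1813 at 24, 1654 at 48 and 1031 at 72 hours. All 3 were above their 0 hour signal on each array from 2 to 48 hours, at 1.33 to 2.00 times, and at 0.912, 1.25 and 0.989 times at 72 hours. None passed the size rule, the highest ratio being 1.996 at 12 hours.

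Other genes of the complement system were followed in 4 lists by role. Of 46 listed genes 35 had a probe set and 20 of these a mean signal of at least 100, which the other 15 did not reach. Of the 20 tested, 3 rose, 6 fell and 11 did not pass, beside 15.0% and 14.1% of all probe sets. Their log2 changes had a median of 0.38 at 6 hours and -0.28 at 72 hours, against -0.04 and -0.004 over all probe sets tested. When the 2 hour or the 72 hour array was left out the count that fell was 3, and none rose without the latter. Of the 9 calls, those of C3ar1 and C6 held without the 72 hour array, those of Masp2, C6, Cfp and Itgam were lost without that of 2 hours, those of Masp2 and C6 without that of 6 hours, and those of Masp2, C6, Cfd and Cfp without that of 48 hours.

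Among recognition proteins and early proteases, 3 of 7 genes with a probe set were tested. Fcna, a ficolin that starts the lectin route, fell by 1.32 on the log2 scale over 72 hours (standard error 0.27, adjusted p = 0.00567 from limma). Its signal was 1329 at 0 hours, 1943 at 6, 939 at 12, 938 at 24 and 593 at 72 hours, so that it too was highest at 6 hours and lower from 12 hours on. Masp2, a protease of the lectin route, rose by 1.13 (standard error 0.34, adjusted p = 0.0306) but from a 2 hour signal of 160, below its 331 at 0 hours, to 448 at 72 hours. Masp1, a related protease, ended at 0.774 of its first signal and did not pass (adjusted p = 0.0953).

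Of the alternative route and the terminal components C5 to C9, 4 of 8 were tested. Cfd, the protease that cuts factor B, rose by 0.85 (standard error 0.23, adjusted p = 0.0193), to 2.13 times its 0 hour signal at 72 hours. Cfp (properdin), which stabilises the C3-cleaving enzyme, fell by 1.49 (standard error 0.41, adjusted p = 0.023), being at 2.13 times the first signal after 24 hours and at 0.387 after 72. C6, of the membrane attack complex, fell as well (adjusted p = 0.0367), to 0.392, but its highest signal was only 187. C8g did not pass (adjusted p = 0.316). The mean signals of C5, C8a, C8b and C9 were between 3.31 and 34.8, too low to be tested.

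None of the 6 tested inhibitors passed the trend test in either direction, and of the 12 with a probe set the other 6 were too low. Serping1, the inhibitor of C1r and C1s, had a signal of 14702 at 0 hours, 19772 at 6, 18197 at 12 and 12528 at 72 hours (adjusted p = 0.163). Clu (clusterin), which blocks the membrane attack complex, was at 1.46 times its 0 hour signal at 72 hours (adjusted p = 0.179), and C1qbp, a mitochondrial protein that can bind C1q, at 0.972 (adjusted p = 0.784). By the size rule 1 inhibitor was higher at 72 hours, as were 2.60% of all probe sets, and 1 was lower, as were 3.54%. Cd55, which speeds the decay of the C3-cleaving enzymes, was the higher one, with 111 at 0 hours and 351 at 72 hours (adjusted p = 0.453), but on the array before, that of 48 hours, it was at 61.1, or 0.550 of its first signal. Susd4 was the lower one, at 0.435 (adjusted p = 0.191).

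Of 8 complement receptors with a probe set 7 were tested. C3ar1, the receptor of the C3a fragment, fell by 1.69 (standard error 0.35, adjusted p = 0.00641), with 351 at 0 hours, 396 at 2, 253 at 6, 233 at 12, 212 at 24, 69.9 at 48 and 118 at 72 hours. Itgax and Itgam, chains of the receptors CR4 and CR3 for cleaved C3, fell by 1.24 and 0.93 (adjusted p = 0.00261 and 0.026), to 0.527 and 0.554 of their 0 hour signal at 72 hours. At 12 hours, when the C1q genes were at 0.385 to 0.479, Itgax was at 1.34 times and Itgam at 1.05 times. Itgam also stands in the list of microglial markers. Lrp1, an endocytic receptor, rose by 0.51 (standard error 0.11, adjusted p = 0.00900), to 1.35 times. Itgb2, the common chain of CR3 and CR4, C5ar1, the receptor of the C5a fragment, and Cd93 did not pass (adjusted p between 0.1002 and 0.128).

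**Figure D4:**
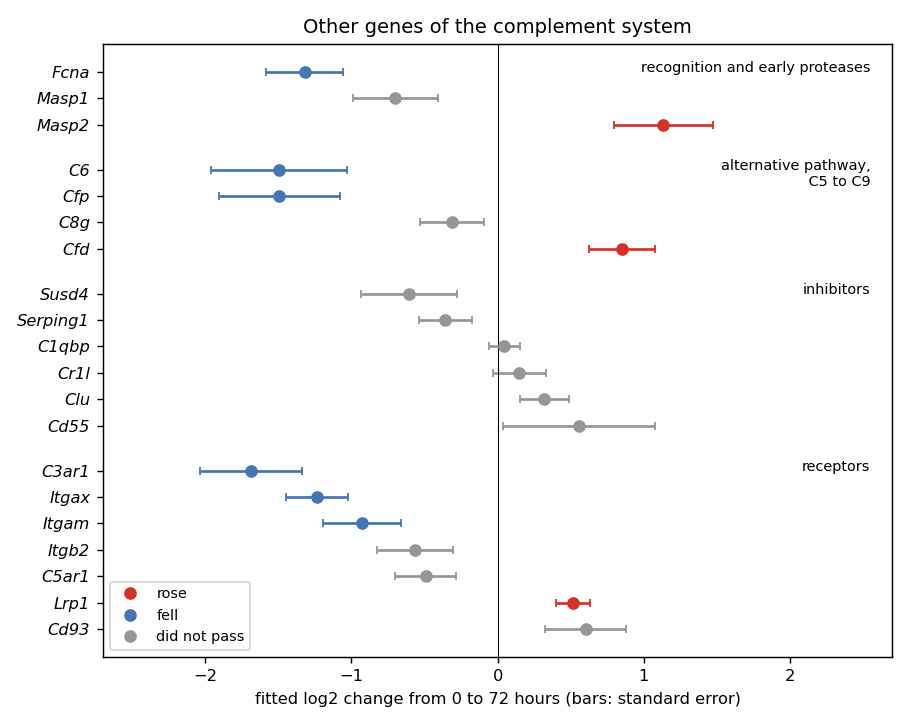
Fitted log2 change from 0 to 72 hours (horizontal axis) of the 20 tested complement genes that are no members, grouped by role (vertical axis), with bars for the standard error around the line over 7 arrays. Red points rose (3), blue points fell (6) and grey points did not pass the test (11), among them all 6 inhibitors.

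Markers of the other cell types in the culture are given beside these results, and their part in them was not tested. The summed signal of 12 neuronal markers was 19540 at 0 hours, 11845 at 2 and 9649 at 6 hours. It was 6243 at 12 hours, 8248 at 24, 4854 at 48 and 6068 at 72 hours. Like the C1q genes, the neuronal sum was lower at 12 than at 24 hours. Unlike them, it was already lower at 6 than at 0 hours, when the C1q genes were at their highest. Of the 11 tested neuronal markers 3 fell (7 with the 12 hour array left out, 1 with that of 48 hours left out). The log2 changes of these 11 had a median of -1.66 at 12 hours and -1.49 at 72 hours. Over all probe sets tested the medians were 0.01 and -0.004, and 14.1% fell. The sum of 10 astrocyte markers ranged from 59597 at 6 hours to 83462 at 24 hours, with none of 9 past the trend test, and 1 that fell without the 0 or the 6 hour array. For 10 markers of fibroblasts and meningeal cells it ranged from 80590 at 48 hours to 97767 at 0 hours, and 3 fell and 1 rose, with 1 that fell without the 48 hour array and none that rose without the 0, 2, 6, 12 or 72 hour array. Of endothelial markers 4 of 7 had a mean signal under 100, Pecam1 among them, and none of 3 tested passed, though 1 fell without the 0 or the 2 hour array. Liver cell markers, listed because the liver makes most plasma complement, were low, with Alb at 22.4 to 59.4 and 5 of 6 under a mean of 100. The ratio of the 3' to the 5' signal of the beta-actin controls, a measure of RNA integrity, was 1.82 at 0 hours, 1.83 at 6, 1.95 at 12, 2.20 at 24, 2.54 at 48 and 2.62 at 72 hours, and that of Gapdh lay between 1.09 and 1.17. The part of RNA integrity in the lower C1q signals at 48 and 72 hours was not tested.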

How the data were processed

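Total RNA of cultured spinal cord cells was measured on 7 GeneChip Rat Genome 230 2.0 arrays, 1 per time. The authors calculated a signal intensity per probe set in GCOS with MAS5.0 (version 5.0) and scaled each array globally to a trimmed mean of 500. These deposited intensities are linear, and the scaling was checked in them (500.14 to 500.16 with 2% left out at each end, medians 144.68 to 162.43). Of 31099 probe sets 57 controls were left out. Names came from the platform annotation of the probe sets, with 20826 of 1 symbol, 436 of several and 9780 unnamed, and the 6 measured members kept their symbols in GRCr8. Each gene was represented by its singly named probe set of highest mean signal. Other probe sets of a listed gene were not counted and can differ from the one used. Ratios used the deposited signals. The linear change with hours was fitted with limma 3.58.1 (under R 4.3.3; the functions lmFit and eBayes, trend = TRUE, 5 residual degrees of freedom) on log2(signal + 32), leaving out probe sets that averaged under 100, with Benjamini-Hochberg adjustment to 0.05, and was tested on simulated data. Its error is the spread around the line over time, not between cultures, and a fold change on this scale understates changes of low signals. Other values used Python 3.11.15 with numpy 2.4.6 and pandas 2.3.3. The members and gene lists were chosen with earlier results of these data known. The lists were 4 of the complement system, markers of microglia, astrocytes, fibroblasts, neurons, endothelium and liver cells, acute phase and NF-kB targets, and interferon targets. Named were all members, the pathway genes past the trend test or the size rule and up to 3 more per list, the brightest and first-listed markers, and the 3 genes nearest to each member. Alternatives were other scalings, baselines, thresholds, pseudocounts, filters and forms of time, and each array left out in turn.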

Additional observations from a re-analysis of the deposited data

How the results depend on the processing

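No paired analysis was possible because each time had 1 array and the labels number no replicates. Under another scaling (same median, quantile) or with the 0 and 2 hour arrays averaged as the baseline, the ratios of the 6 members at 12 and 72 hours moved by less than 1.5 times in all 36 cases. The alternative that averages the probe sets of a gene gave no value of its own, since each member has 1. Of the counts of members past the size rule, those at 48 and 72 hours stayed at 3 under all alternatives. With a ratio of at least 3, none of the members was lower at 12 hours, 0 at 24 hours and 0 higher at 6 hours. At 24 hours the count was 0 with the same median or the other baseline and 3 with both thresholds lowered, to a ratio of 1.5 and a difference of 100, in place of 1. Scaled to the same median, 2 were lower at 12 hours, with C1qb at 0.529. With time as log2(hours + 1), 0 of the 20 complement genes rose and 3 fell, and with time as rank 1 rose. With 1 array left out, 0 to 3 rose and 3 to 9 fell. Scaled to the same median, 5 neuronal markers fell and 0 fibroblast markers rose. With 1 array left out, 2 to 8 microglial, 0 to 1 astrocyte, 1 to 3 fibroblast, 1 to 7 neuronal and 0 to 1 endothelial markers fell, 0 to 1 fibroblast marker rose, 0 to 1 gene of the acute phase and NF-kB list fell, and 0 to 1 interferon target rose. The calls of C3ar1 held under all 16 alternatives, those of Masp2 under 9 and of C6 under 10 of 15, and no named complement gene changed direction. With 64 added in place of 32, 16 of the 18 nearest genes were kept. The cause of these differences was not tested. With 1 array per time no result has a replicate check.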

Other observations

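Targets of interferon, which include several genes of antigen processing, were lower as a group late in the course. Of 18 listed genes 16 were tested, of which 11 fell, 1 rose and 4 did not pass the trend test, beside 14.1% and 15.0% of all probe sets, and none rose without the 72 hour array. Their log2 changes had a median of 0.26 after 6 hours, 0.002 after 12, -0.50 after 48 and -0.50 after 72. Psmb9, a subunit of the immunoproteasome, fell to 0.313 of its 0 hour signal at 72 hours and stood at 0.837 at 12 hours, when the C1q genes were at 0.385 to 0.479. Ifi27 fell by 1.01 on the log2 scale (standard error 0.16, adjusted p = 0.00190 from limma), being at 1.08 after 12 hours and at 0.571 after 72, relative to 0 hours. Cxcl10, a chemokine, rose by 1.48 (adjusted p = 0.00397), to 3.41 times at 72 hours. Psmb9 was named after its values had been seen.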
